A study of Mus musculus with 18 samples.

Results

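The mitosis and spindle genes are 36 protein-coding genes whose products build the mitotic spindle, hold and part the chromosomes, and switch the cell into and out of division. They were chosen by symbol, and all 36 were found among the 55469 gene IDs of each of 4 expression tables from mouse prostate. Total RNA was sequenced from 2 prostate lobes, the ventral and the lateral, of males of a strain spelled C56NL/6N. Every mouse, controls included, carried 1 copy of the TRAMP transgene (TRAMP +/-), in which the probasin promoter drives the SV40 T antigens in prostate epithelium. The 3 lines were WT-TRAMP (ELAC2+/+), KO-TRAMP (ELAC2-/-) and A537T-TRAMP (ELAC2A537T), and there were 3 libraries of every line from 10-week-old males and 3 from 30-week-old males, 18 libraries in all. In KO-TRAMP both Elac2 alleles lose an exon through Cre driven by the same Pb promoter, so stromal, immune and endothelial cells keep the gene. In A537T-TRAMP every cell of the body carries the amino acid change on both alleles. Libraries are named by the number in the table headers: libraries 1 to 3 (10 weeks) and 10 to 12 (30 weeks) are WT-TRAMP, 7 to 9 and 16 to 18 are KO-TRAMP, and 4 to 6 and 13 to 15 are A537T-TRAMP.

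A dividing cell makes the mRNAs of these genes mostly in G2 and M phase. The kinase Cdk1, with its cyclin partners, starts mitosis, motor proteins and microtubule binders shape a bipolar spindle, and a checkpoint holds back anaphase until every kinetochore is attached. The ubiquitin ligase APC/C, activated by Cdc20, then destroys cyclin B and securin so that sister chromatids part and the cell divides. The normal adult prostate holds few dividing cells. SV40 large T antigen binds the pocket proteins that keep E2F and MuvB target genes silent in resting cells, and mitotic genes are widely used as a measure of proliferation in TRAMP tissue. In bulk tissue RNA, a smaller number of dividing cells and less mitotic mRNA per dividing cell cannot be told apart.

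The libraries held 9380174 to 14830104 recovered reads each, and a member was covered by between 31 reads (Mybl2) and 16511 reads (Mki67) in a library. The luminal genes Krt8 and Epcam were present in every library, and the 14 luminal markers summed to between 0.357% and 3.67% of reads at 10 weeks and between 0.384% and 0.637% at 30 weeks. Elac2, counted over the whole gene, differed between KO-TRAMP and WT-TRAMP by a log2 fold change of −0.22 ± 0.14 (SE, n = 3 against 3, limma adjusted p = 0.808) at 10 weeks and −0.19 at 30 weeks (limma adjusted p = 0.522), so its counts do not mark which libraries are KO-TRAMP. Library 5 (A537T-TRAMP, 10 weeks) stood apart by seminal vesicle transcripts, which made up 9.05% of its reads against at most 0.000459% in WT-TRAMP of that age. Its luminal markers had the lowest sum of the 18 libraries, with 9 of 14 below and 3 above every WT-TRAMP library of that age. Of all genes by normalized counts, 36.6% were below and 36.3% above in library 5.

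The 30-week libraries of KO-TRAMP and WT-TRAMP were not spread evenly. Over the 2617 genes with a mean of at least 100 that spanned more than 1 log2 unit within KO-TRAMP, library 18 lay between libraries 16 and 17 for 96.6%, at a median of 0.62 of the distance from 16 to 17 with quartiles of 0.55 and 0.69. For the 36 mitosis genes the same position was 0.58, with quartiles of 0.56 and 0.63, and all 36 were intermediate. In WT-TRAMP, library 12 lay between 10 and 11 for 89.5% of 898 such genes, at a median of 0.56. In the other 4 groups the library most often in the middle was so for 46.5% to 73.0% of genes. Whether libraries 12 and 18 are independent of the other libraries of their groups was not tested, and the 30-week KO-TRAMP results are therefore also given without them.

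Levels between genes were compared as RPM (reads scaled to the library total) per kilobase of merged exons. Mki67, the Ki-67 antigen that coats mitotic chromosomes, had the highest median level over the 18 libraries at 40.1, followed by Top2a, which untangles sister DNA, at 22.1. Cdc20 and Ccna2 (cyclin A2, active in S and G2) both stood at 10.6, and Ccnb2 (cyclin B2) at 9.99. The medians of these last 3 differ by far less than each varies over libraries. At the low end of these medians were Nuf2, a kinetochore subunit, at 1.76, the phosphatase Cdc25c at 1.71 and the transcription factor Mybl2 at 1.43. That order did not hold within every group. By the median of 3 libraries the lowest member was Cdc25c in KO-TRAMP at 10 weeks (1.23) and in WT-TRAMP at 30 weeks (1.66, with Mybl2 at 2.82), and Espl1 in KO-TRAMP at 30 weeks (3.28, with Mybl2 at 6.24). A member's highest library held 7.63 times its lowest as a median over the 36 genes, from 4.13 times for the separase gene Espl1 to 14.2 times for Ccnb1. At 30 weeks library 17 was the highest of 9 libraries for 35 members, the exception being Espl1. At 10 weeks the control library 1 was the highest for 25 and library 5 the lowest for 24.

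**Figure D1:**
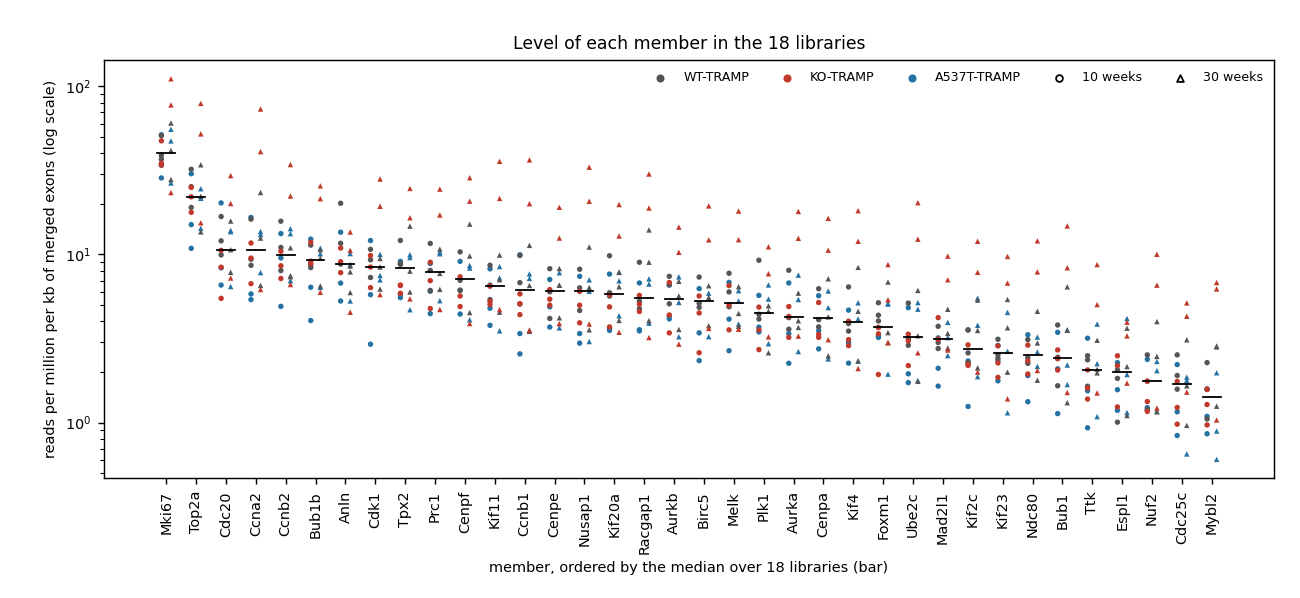
Level of each of the 36 members in every library, in RPM per kilobase of merged exons on a log axis, ordered by the median over 18 libraries (bar), with colour for the line, circles for 10 weeks and triangles for 30 weeks. Mki67 stands highest with a median of 40.1 and Mybl2 lowest at 1.43, and the triangle of library 17 is the highest of the 9 at 30 weeks for 35 members.

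Many G2 and M genes carry a CHR element, bound by the DREAM and MuvB complexes, and CCAAT boxes, bound by NF-Y, close to the transcription start. RefSeq promoter windows (GRCm38.p6, 250 bases before to 50 after the start) were found for 30 of the 36 members. Kif20a, Tpx2, Cdc25c, Foxm1, Ccna2 and Aurkb are the members without one. Both strands were searched, and matches of different motifs could overlap. For the CHR the letters searched were TTTGAA and, as a variant used by some promoters, also TTCGAA. The CCAAT box was searched by its own letters. The E2F site was searched as TTTCCCGC, TTTCGCGC, TTTGGCGC and TTTGCCGC. A CHR was found in 22 of the 30 members (73.3%), against 19.2% of all 32851 windows, and a CCAAT box in 21 (70%) against 37.4%. Both were found in 19 members (63.3%) against 7.52% of windows. A CCAAT box lying 25 to 40 bases before a CHR was found in 9 (30%) against 0.706%. An E2F match was found in 1 member, Cdk1 (3.33%), against 2.26%. In the upstream 250 bases alone, 11 members held a CHR (36.7%, against 17.1% of windows) and 21 a CCAAT box (70%, against 33.8%), so in the other 11 of the 22 no CHR lay wholly upstream of the start.

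The upstream sequences of 5 members named by role and of 3 others, Top2a, Kif11 and Mki67, added after their motif positions were seen, are shown. Some counted matches lie outside them, such as the CHR of Plk1 and the CCAAT boxes of Mki67. The sequences thus hold only part of the letters behind those counts. Each is 120 bases of RefSeq sequence of GRCm38.p6 on the gene's strand, ending before the first base that GENCODE puts inside the gene (84 bases before the RefSeq start in Ccnb1, 26 in Cdk1, 9 in Cdc20, none left out in the others), with every CHR, CCAAT and E2F match in capitals. They lie at chr13:100786571-100786690 (minus strand), chr9:70421555-70421674 (minus), chr4:118437353-118437472 (minus), chr7:122159315-122159434 (plus), chr10:69352939-69353058 (minus), chr11:99024190-99024309 (minus), chr19:37376262-37376381 (plus) and chr7:135716380-135716499 (minus), in the order printed.
Ccnb1: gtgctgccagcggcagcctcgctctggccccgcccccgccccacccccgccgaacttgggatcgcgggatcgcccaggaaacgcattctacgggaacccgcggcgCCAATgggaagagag
Ccnb2: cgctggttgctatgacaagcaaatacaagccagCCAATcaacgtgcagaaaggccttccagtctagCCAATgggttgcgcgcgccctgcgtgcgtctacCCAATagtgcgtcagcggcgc
Cdc20: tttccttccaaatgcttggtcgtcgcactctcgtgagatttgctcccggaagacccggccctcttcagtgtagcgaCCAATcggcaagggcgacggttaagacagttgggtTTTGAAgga
Plk1: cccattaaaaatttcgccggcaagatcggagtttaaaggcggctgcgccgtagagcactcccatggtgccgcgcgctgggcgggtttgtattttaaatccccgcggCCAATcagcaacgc
Cdk1: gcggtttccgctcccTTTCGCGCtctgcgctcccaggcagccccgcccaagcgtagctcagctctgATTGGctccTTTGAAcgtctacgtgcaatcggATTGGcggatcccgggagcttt
Top2a: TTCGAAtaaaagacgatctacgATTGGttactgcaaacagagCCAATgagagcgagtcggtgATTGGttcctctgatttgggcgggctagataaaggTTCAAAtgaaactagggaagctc
Kif11: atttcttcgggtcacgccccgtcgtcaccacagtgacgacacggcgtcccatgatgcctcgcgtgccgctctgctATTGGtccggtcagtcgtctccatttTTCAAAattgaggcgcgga
Mki67: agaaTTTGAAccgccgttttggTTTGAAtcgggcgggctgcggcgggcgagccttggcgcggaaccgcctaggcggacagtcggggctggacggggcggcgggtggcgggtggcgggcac
Ccnb2 carried 3 CCAAT boxes in this stretch, Kif11 a CCAAT box before a CHR, and Cdk1 the E2F form TTTCGCGC. A match is a string of letters and not a measured binding site.

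Each mutant line was then set against its age-matched WT-TRAMP controls, in the table that holds both. The values in these comparisons are normalized read counts, and a log2 fold change is the difference of mean log2(normalized count + 1), given with its standard error (SE) and the adjusted p of limma over all genes tested. All 36 members passed the filter on low values in every table. The KO-TRAMP and A537T-TRAMP comparisons of an age share their 3 WT-TRAMP libraries, so the values of the 2 lines are given side by side and are not independent of each other.

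**Figure D2:**
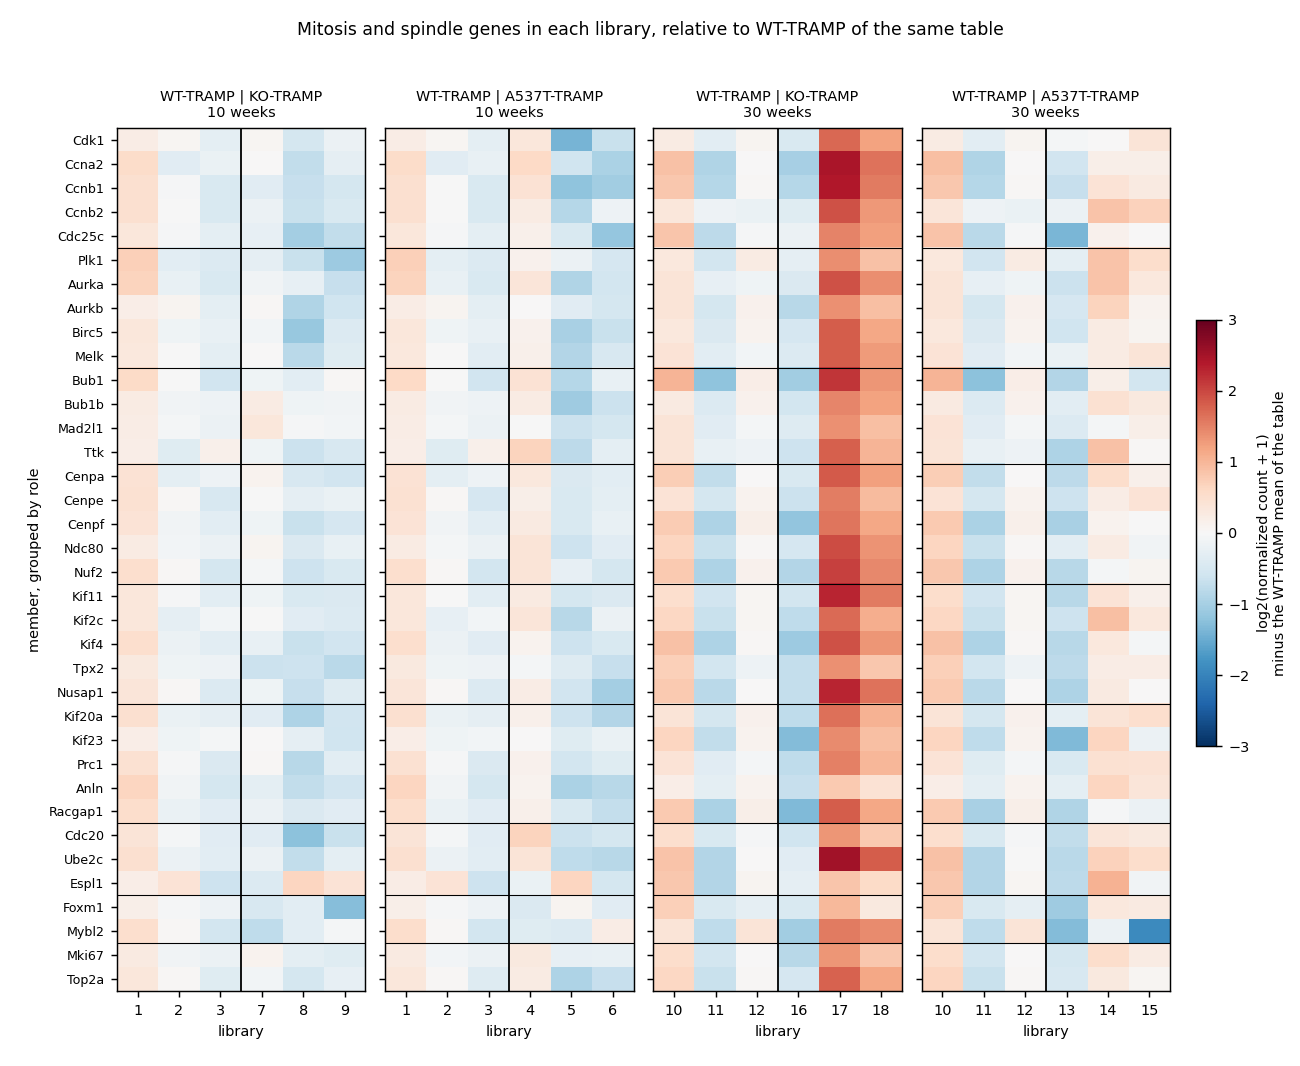
Each member (rows, grouped by role) in each library (columns) of the 4 tables, as log2(normalized count + 1) minus the WT-TRAMP mean of the same table, red above and blue below, with a line between WT-TRAMP and the mutant line. In KO-TRAMP at 30 weeks the columns of libraries 17 and 18 are red throughout, with median ratios to the WT-TRAMP mean of 3.10 and 2.10, and that of library 16 is blue, at 0.622.

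In KO-TRAMP at 30 weeks all 36 members had a mean above that of WT-TRAMP, and none passed the test. The fold changes ran from 0.17 (Anln) to 1.33 (Ube2c) on the log2 scale, with a median of 0.71, a 1.64-fold difference, against a median of 0.010 over all 16900 genes tested. By limma 0 of 36 members had an adjusted p under 0.05 (0.213% of all genes did). At an unadjusted p under 0.05 limma gave 0 members (13.5% of all genes). In edgeR 0 members passed at either level, where 15 of the 16900 genes were called and 2643 passed unadjusted. DESeq2 called 0 members (805 of the 16900 genes), with 6 at the unadjusted level (18.4% of all genes). The smallest limma adjusted p was 0.450, for Ccnb2. For no member did all 3 KO-TRAMP libraries lie above the 3 of WT-TRAMP, which held for 10.8% of all genes. The 3 KO-TRAMP libraries fell on both sides of the controls. Library 17 lay above every WT-TRAMP library for all 36 members (41.2% of all genes) and library 18 for 34, all but Espl1 and Foxm1 (36.3% of all genes), whereas library 16 lay below every WT-TRAMP library for 24 members (27.6% of all genes) and within their range for the other 12. The median SD of a member over the 3 libraries was 1.19 log2 units in KO-TRAMP and 0.63 in WT-TRAMP.

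Single libraries set the size of this difference. Without library 16 the median was 1.43 and 15 members passed the threshold, all higher (18.1% of all genes passed): Cdk1, Ccnb2, Aurka, Birc5, Melk, Bub1b, Mad2l1, Ttk, Cenpe, Ndc80, Kif11, Nusap1, Kif20a, Prc1 and Ube2c. Without library 17 the median was 0.22 and 6 members had a mean below WT-TRAMP. It was 0.40 without the control library 11, 0.52 without library 18, and 0.51 without both 12 and 18, with 0 members called in each. Weighting the libraries by their estimated quality gave a median of 1.12 and 35 calls, all but Foxm1, in a fit that called 63.6% of all genes.

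Among the cyclins and their kinase, Cdk1 (chromosome 10, 69335146 to 69352938), the kinase that starts mitosis, had 533, 361 and 482 normalized counts in the WT-TRAMP libraries (10, 11 and 12, in this order throughout), whereas the KO-TRAMP libraries 16, 17 and 18 had 329, 1499 and 1038. Its log2 fold change was 0.82 ± 0.55 (SE, n = 3 against 3, limma adjusted p = 0.486). Ccnb1 (chromosome 13, 100778650 to 100786570), cyclin B1, had 545, 173 and 320.3 in WT-TRAMP and 173, 1663 and 919 in KO-TRAMP, in the same library order, a difference of 1.04 ± 0.88 (limma adjusted p = 0.561). Of its 31-base exon words, 22.9% recur in the processed copy Ccnb1-ps, so its counts are uncertain where reads could be split between the copies. Ccnb2 had 191, 134 and 131 in WT-TRAMP and 117, 566 and 371 in KO-TRAMP, and 0.95 ± 0.57. Cdc25c, the phosphatase that frees Cdk1 from its inhibitory phosphates, and Ccna2 had fold changes of 0.85 and 1.03. In each of these 5 genes libraries 17 and 18 lay above every control, and library 16 lay below every control in Cdk1, Ccna2 and Ccnb2 and within the controls in Ccnb1 and Cdc25c.

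Among the mitotic kinases, Plk1 (chromosome 7, 122159439 to 122169873), which drives centrosome maturation and mitotic entry, had 124, 67.2 and 117 in WT-TRAMP and 82.3, 264 and 184 in KO-TRAMP (0.67 ± 0.48, limma adjusted p = 0.506). Of its exon words 14.8% recur in the copy Plk-ps1, so its counts are uncertain in the same way as those of Ccnb1. Aurkb (chromosome 11, 69045647 to 69051664), the Aurora kinase that corrects faulty kinetochore attachments, had 233, 124 and 194 in the controls against 99.8, 463 and 330.0 (0.48 ± 0.59, limma adjusted p = 0.682). Birc5 (chromosome 11, 117849251 to 117855743) encodes survivin, its partner in the chromosomal passenger complex. It had 253, 151 and 219 in WT-TRAMP and 143, 715 and 452 in KO-TRAMP (0.82 ± 0.59, limma adjusted p = 0.509). The spindle pole kinase Aurka and the kinase Melk differed by 0.95 and 0.90. Library 16 lay below every control for these kinases except Plk1.

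Of the checkpoint genes, Bub1b (chromosome 2, 118598211 to 118641591), the BubR1 subunit of the complex that inhibits Cdc20, had 520.3, 326 and 471 in WT-TRAMP and 294, 1182 and 998 in KO-TRAMP (0.71 ± 0.54, limma adjusted p = 0.529). Mad2l1 (chromosome 6, 66535390 to 66547220), whose product also binds Cdc20, had 452, 274 and 331 in the controls against 262, 886 and 645 (0.62 ± 0.46, limma adjusted p = 0.520). Bub1 and Ttk, checkpoint kinases at the kinetochore, stood at 0.81 and 0.72. At the kinetochore itself, Ndc80 (chromosome 17, 71496100 to 71526857), the main microtubule anchor, had 340.2, 136 and 225 in WT-TRAMP and 153, 845 and 557 in KO-TRAMP (0.93 ± 0.68, limma adjusted p = 0.513). Cenpf (chromosome 1, 189640606 to 189688086), a large outer kinetochore protein, had 2667, 818 and 1754 in the controls against 693, 4768 and 3481 (0.53 ± 0.80, limma adjusted p = 0.741). Its difference was −0.0093 without library 17. The centromeric histone Cenpa, the motor Cenpe and Nuf2 stood at 0.88, 0.61 and 0.87.

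Among the spindle motors and microtubule binders, Kif11 (chromosome 19, 37376403 to 37421859), the kinesin that pushes the spindle poles apart, had 844, 397 and 613 in WT-TRAMP and 405, 2885 and 1747 in KO-TRAMP (1.10 ± 0.73, limma adjusted p = 0.481). Tpx2 (chromosome 2, 152847964 to 152895321), which activates Aurora A on the spindle, had 786, 328 and 432 in the controls against 294, 1248 and 841 (0.49 ± 0.59, limma adjusted p = 0.677). The microtubule bundler Nusap1 differed by 1.06, the chromokinesin Kif4 by 0.72 and the microtubule depolymerase Kif2c by 0.68. Kif11 and Nusap1 were 2 of the 5 members with a fold change above 1 log2 unit, the others being Ccna2, Ccnb1 and Ube2c, while 12.9% of all genes were past that size in either direction.

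The central spindle and cytokinesis genes held the smallest fold change. Prc1 (chromosome 7, 80294450 to 80316259), which crosslinks the antiparallel microtubules of the midzone, had 1009, 599 and 736 in WT-TRAMP and 448, 2174 and 1536 in KO-TRAMP (0.58 ± 0.59, limma adjusted p = 0.621). Racgap1 (chromosome 15, 99620496 to 99651656), a centralspindlin subunit, had 1130.2, 336 and 739 in the controls against 262, 2302 and 1455 (0.55 ± 0.87, limma adjusted p = 0.754), and −0.083 without library 17. Its library 16 was the lowest ratio to the controls of any member, 0.357. Kif20a and Kif23, the other midzone kinesins, stood at 0.64 and 0.34. Anln, the anillin scaffold of the contractile ring, had 882, 631 and 829 in WT-TRAMP and 475, 1332 and 1043 in KO-TRAMP, a difference of 0.17 ± 0.39 on the log2 scale.

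For anaphase and mitotic exit, Ube2c (chromosome 2, 164769898 to 164778822), the ubiquitin-conjugating enzyme of the APC/C, held the largest fold change of the 36. Its counts were 181, 53.7 and 99.2 in WT-TRAMP and 78.2, 571 and 349 in KO-TRAMP, a log2 difference of 1.33 ± 0.81 (2.51-fold, limma adjusted p = 0.454). Cdc20 (chromosome 4, 118432901 to 118437352), the APC/C activator, had 337, 172 and 231 in the controls against 156, 594 and 408 (0.50 ± 0.52, limma adjusted p = 0.633), and 23.4% of its exon words recur in the gene copy Gm7856. Espl1 had 364, 113 and 219 in WT-TRAMP and 174, 374 and 312 in KO-TRAMP, a difference of 0.39 ± 0.49. Of the transcription factors, Foxm1 (chromosome 6, 128362967 to 128376146), which activates G2 and M genes, had 449.8, 202 and 229 in WT-TRAMP and 199.6, 542 and 336 in KO-TRAMP (0.27 ± 0.45, limma adjusted p = 0.768), and −0.085 without library 17. Mybl2 (chromosome 2, 163054687 to 163084688), B-Myb, had 151, 68.1 and 152 in the controls against 55.6, 341 and 314 (0.64 ± 0.76, limma adjusted p = 0.671). Mki67 (chromosome 7, 135689784 to 135716361) had 6936, 3291 and 4848 in WT-TRAMP and 2713, 12034 and 8474 in KO-TRAMP (0.44 ± 0.58, limma adjusted p = 0.705), and −0.0018 without library 17. Top2a (chromosome 11, 98992943 to 99024189) had 3508, 1440.5 and 2317 in the controls against 1607, 7702 and 5109 (0.81 ± 0.63, limma adjusted p = 0.531).

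**Figure D3:**
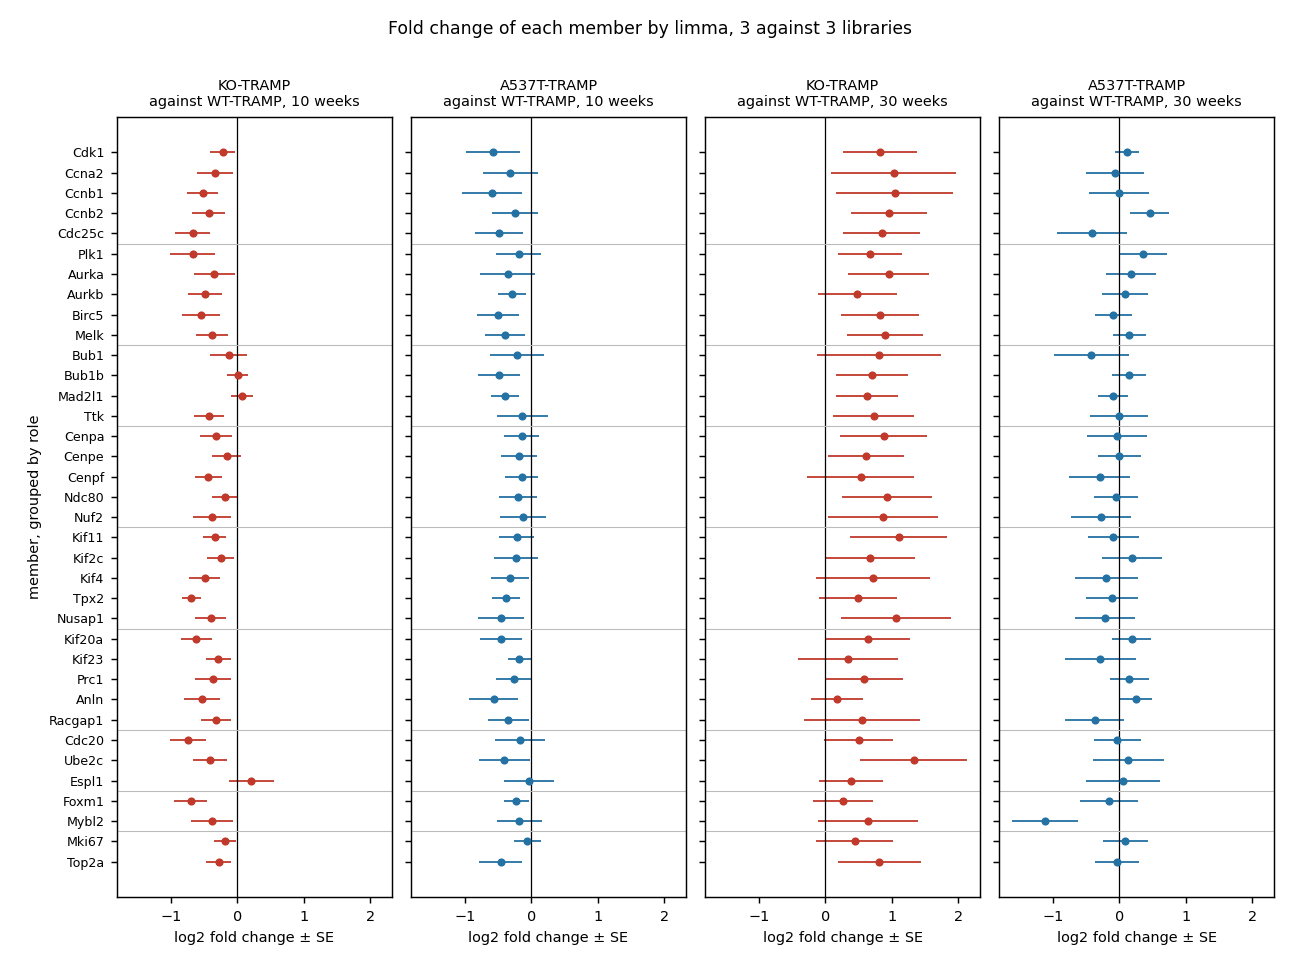
Log2 fold change of each member with its standard error, by limma on 3 against 3 libraries, in the 4 comparisons, with members grouped by role. All 36 points lie right of 0 in KO-TRAMP at 30 weeks and all 36 left of 0 in A537T-TRAMP at 10 weeks, and the bars are longest in KO-TRAMP at 30 weeks, where the median SE was 0.607.

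Sums of marker genes also differed among the 3 KO-TRAMP libraries of 30 weeks. Library 18 lay between libraries 16 and 17 for 96.6% of the variable genes. Most lists that vary there therefore follow the order of the mitotic genes or its reverse, and a shared order does not link a list to mitosis. The 13 neuroendocrine markers summed to 0.00291%, 0.194% and 0.121% of reads in libraries 16, 17 and 18, against 0.0355%, 0.00289% and 0.0177% in WT-TRAMP libraries 10, 11 and 12 and 0.00599% to 0.00750% in A537T-TRAMP. In libraries 17 and 18, 12 of the 13 stood above every control, and in library 16 none did. By normalized counts, 26.4%, 41.2% and 36.3% of all genes lay above every control in libraries 16, 17 and 18, and 27.6%, 36.7% and 32.5% below. A marker count near these shares does not set its list apart from all genes. In library 16, 6 of the 13 neuroendocrine markers were at 0 reads, among them Chgb, Scg2, Scg3, Snap25 and Foxa2. Of the controls, library 11 had 7 of the 13 at 0 reads, and libraries 10 and 12 had 0. In A537T-TRAMP libraries 13, 14 and 15 the number at 0 reads was 1, 2 and 4. Basal markers summed to 0.0217% and 0.0153% in libraries 17 and 18 and 0.00355% in library 16, against 0.00344% to 0.00364% in WT-TRAMP. The 5 basal genes did not move as 1 block: 3 stood above and 2 below every control in library 17, 4 above and 1 below in library 18, and 1 above and 2 below in library 16. Luminal markers summed to 0.384% and 0.450% in 17 and 18 and to 0.546% in 16, against 0.512% to 0.637%. In 17 and 18 alike 11 of the 14 were below every control and 3 above, and in 16 there were 5 below and 4 above. Smooth muscle markers summed to 0.0711%, 0.365% and 0.252% in libraries 16, 17 and 18 against 0.139% to 0.243%, with all 9 below every control in library 16, all 9 above in library 17 and 5 above in library 18. Erythroid markers summed to 0.00244%, 0.00541% and 0.00405% against 0.00153% to 0.00166%, with 2, 5 and 4 of 5 above every control. Endothelial markers summed to 0.00513%, 0.00918% and 0.00752% against 0.00311% to 0.00329%, and all 6 stood above every control in all 3 KO-TRAMP libraries. Skeletal muscle markers summed to 0.00500%, 0.00991% and 0.00787% against 0.00352% to 0.00598%, with 4, 7 and 7 of 9 above every control and 1, 0 and 1 below. Adipose markers summed to 0.000436%, 0.00487% and 0.00327% against 0.00432% to 0.0124%, with 7, 5 and 5 of 7 below every control and 0 above. Fibroblast markers were higher in all 3 KO-TRAMP libraries (0.166% to 0.198%, against 0.0393% to 0.0447%) and so did not follow the split of the mitotic genes, and macrophage markers were likewise 0.0358% to 0.0411% against 0.0134% to 0.0163%. Seminal vesicle transcripts varied between 0.000106% and 5.45% over the 9 libraries, and were 0.266%, 0.000701% and 0.106% in libraries 16, 17 and 18. The part of these cell types in the mitotic values was not tested.

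**Figure D4:**
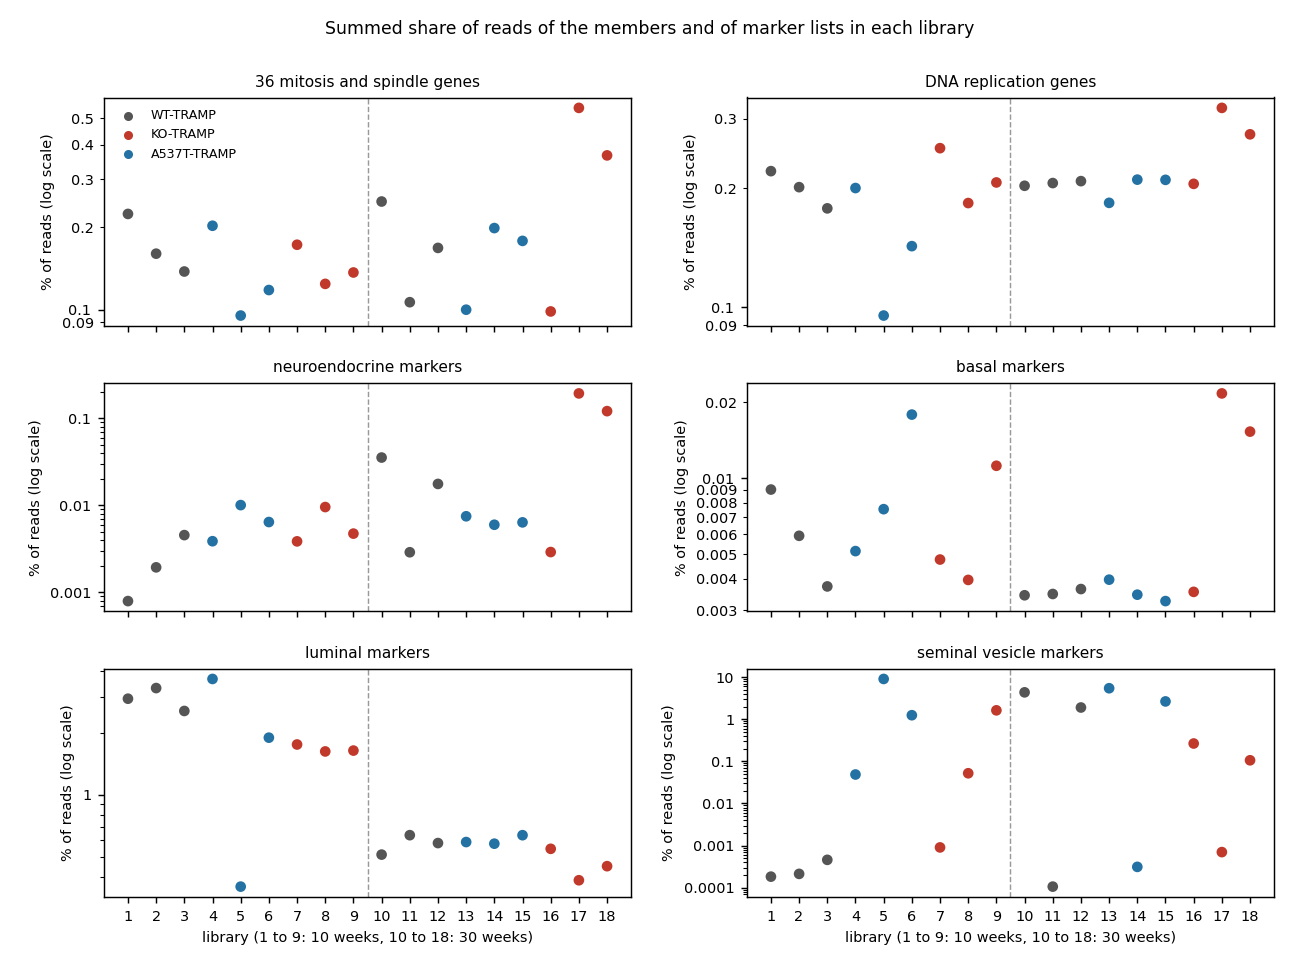
Summed share of reads (%, log axes) of the 36 members, of DNA replication genes and of 4 marker lists in each library, coloured by line, with a dashed line between 10 and 30 weeks. Of the 30-week libraries, 17 and 18 are highest for the members, at 0.546% and 0.366%, and for the replication, neuroendocrine and basal lists, and library 16 is not, while library 5 holds the most seminal vesicle and the least luminal transcript.

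In KO-TRAMP at 10 weeks 33 of the 36 members had a mean below that of WT-TRAMP and none passed limma's test. The median log2 fold change was −0.38, which is 23.0% lower, against −0.0060 over all 15451 genes tested, and the values ran from −0.74 (Cdc20) to 0.21 (Espl1). By limma 0 members had an adjusted p under 0.05 (0.0129% of all genes) and 5 an unadjusted p under 0.05, all lower (2.93% of all genes were lower at that level): Tpx2, Cdc20, Foxm1, Kif20a and Cdc25c. DESeq2 on recovered reads called 1 member, Tpx2, lower (0.537% of all genes called), with 10 members at the unadjusted level (6.82% of all genes). In edgeR 0 members were called (0 of the 15451 genes), with 6 at the unadjusted level (6.91% of all genes). For 4 members all 3 KO-TRAMP libraries lay below the 3 of WT-TRAMP (6.26% of all genes), namely Tpx2, Cdc20, Foxm1 and Kif20a. Library 7 lay within the control range for 30 members, while library 8 lay below every control for 29 (30.7% of all genes) and library 9 for 21 (24.7%). Leaving out library 1, the control highest for most members, brought the median to −0.17, leaving out library 8 to −0.26 and leaving out library 3 to −0.57.

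Tpx2 had 649, 482 and 480.1 in the controls (libraries 1, 2 and 3) while KO-TRAMP (libraries 7, 8 and 9) had 339, 348 and 304, with no overlap and a log2 fold change of −0.69 ± 0.15 (SE, n = 3 against 3, limma adjusted p = 0.624). Cdc20 had 359, 264 and 218 in the controls against 218, 117 and 174 (−0.74 ± 0.26, limma adjusted p = 0.716). In Cdc20 the highest mutant library reached just under the lowest control. Foxm1 had 340.1, 294 and 272 in WT-TRAMP and 214, 241 and 123 in KO-TRAMP (−0.70 ± 0.25, limma adjusted p = 0.716), and Kif20a, a cytokinesis kinesin, 488, 301 and 289 in the controls against 274, 183 and 234 (−0.61 ± 0.24). Cdc25c overlapped the controls through library 7, with 143, 110.0 and 91.4 in the controls against 95.3, 54.8 and 67.0 (−0.67 ± 0.26). Espl1, which encodes the protease that cuts cohesin, went against the other members with 184, 211 and 104 in WT-TRAMP and 119.6, 249 and 211 in KO-TRAMP (0.21 ± 0.34, limma adjusted p = 0.934). Libraries 8 and 9 passed the highest control and library 7 lay among the controls, and its value was −0.093 without library 3.

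The cyclins and kinases at 10 weeks had fold changes below 0 in all 10 members in KO-TRAMP. Cdk1 had 605.9, 537.4 and 422.9 in WT-TRAMP and 536, 356 and 459 in KO-TRAMP (−0.22 ± 0.19, limma adjusted p = 0.872), and Ccnb1 476, 336 and 251 in the controls against 271, 211 and 238 (−0.52 ± 0.23, limma adjusted p = 0.742). Plk1 had 233, 114 and 107 in the controls against 118, 89.1 and 66.1 (−0.67 ± 0.34, limma adjusted p = 0.767), where library 1 stood far above the other 5 libraries. Aurkb had 250.1, 229 and 176 in the controls against 221, 115 and 142 (−0.49 ± 0.26, limma adjusted p = 0.767). Birc5 had 286, 205 and 194 in the controls against 212, 101 and 169 (−0.55 ± 0.28, limma adjusted p = 0.767). The checkpoint genes Bub1b and Mad2l1 were the members nearest to 0. Bub1b had 556, 432 and 419.5 in WT-TRAMP and 556, 429 and 431 in KO-TRAMP (0.0084 ± 0.16, limma adjusted p = 0.996), and Mad2l1 359, 295 and 272 in the controls against 389, 299 and 291 (0.077 ± 0.16, limma adjusted p = 0.952).

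Of the kinetochore, motor and cytokinesis genes at 10 weeks, Cenpf had 1830.1, 1269.8 and 1107 in WT-TRAMP and 1252, 861 and 967 in KO-TRAMP (−0.43 ± 0.21, limma adjusted p = 0.756) and Ndc80 232, 185 and 172 in the controls against 207, 144 and 167 (−0.19 ± 0.19, limma adjusted p = 0.887). Kif11 had 737, 575 and 472 in the controls against 532, 428 and 434 (−0.34 ± 0.18, limma adjusted p = 0.768). Prc1 had 1095, 775 and 590.2 in the controls against 815, 447 and 636 (−0.37 ± 0.27, limma adjusted p = 0.841), and Racgap1 728, 437 and 396 in the controls against 445, 369 and 397 (−0.32 ± 0.22, limma adjusted p = 0.830). Library 8 lay below every control in these 5 genes and library 7 within the controls, while library 9 lay below every control in Cenpf, Ndc80 and Kif11. Ube2c had 153, 96.2 and 88.1 in WT-TRAMP and 96.2, 64.6 and 88.2 in KO-TRAMP (−0.41 ± 0.26, limma adjusted p = 0.811), and Mybl2 121, 86.2 and 57.3 in the controls against 49.4, 67.6 and 80.8 (−0.38 ± 0.31, limma adjusted p = 0.863). Mki67, at 5860.1, 4569 and 4353 in the controls against 5249, 3992 and 3784 (−0.19 ± 0.16, limma adjusted p = 0.872), and Top2a, at 3312, 2673 and 2015 in the controls against 2485, 1825 and 2194 (−0.28 ± 0.19, limma adjusted p = 0.830), the most abundant members per kilobase, had fold changes nearer to 0 than the median member. Luminal markers summed to 1.63% to 1.76% of reads in the 3 KO-TRAMP libraries and 2.56% to 3.32% in WT-TRAMP. The 14 luminal genes went both ways: 6, 5 and 3 stood above every control in libraries 7, 8 and 9, and 3, 7 and 3 below. Seminal vesicle transcripts summed to 1.63% in library 9. Neuroendocrine markers summed to 0.00386%, 0.00958% and 0.00474% in libraries 7, 8 and 9 against 0.000794% to 0.00456% in WT-TRAMP. Of these 13 genes 3, 10 and 3 stood above every control and 2, 0 and 2 below, while 6, 4 and 4 were at 0 reads in WT-TRAMP libraries 1, 2 and 3. Smooth muscle markers summed to 0.0795%, 0.124% and 0.115% in libraries 7, 8 and 9 against 0.0424% to 0.0694% in WT-TRAMP, with 7, 9 and 9 of 9 above every control. Of all genes by normalized counts, 23.6%, 28.9% and 23.4% lay above every control in these libraries, and 22.6%, 30.7% and 24.7% below. The part of any of these in the mitotic values was not tested.

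In A537T-TRAMP at 10 weeks all 36 members had a mean below that of WT-TRAMP, with none past the test. The median was −0.28, which is 17.5% lower, against −0.0078 over all 15438 genes, from −0.60 (Ccnb1) to −0.031 (Espl1). By limma 0 members had an adjusted p under 0.05 (0.00648% of all genes) and 0 an unadjusted p under 0.05 (7.89% of all genes). In edgeR and DESeq2 0 members passed at either level. Of the 15438 genes, edgeR called 0 with 1363 at the unadjusted level, and DESeq2 called 148 with 1588. For no member did the 3 A537T-TRAMP libraries all lie below the 3 controls (6.53% of all genes). Library 4 lay within or above the controls for 35 members, and above every control for 7 (25.3% of all genes). Library 5, which held the seminal vesicle transcripts, lay below every control for 30 members (36.6% of all genes) and library 6, with 1.25% seminal vesicle transcripts, for 26 (32.9%). Leaving out library 4 brought the median to −0.54, and leaving out 1, 5 or 6 brought it to −0.072, −0.17 or −0.18, while leaving out 3 gave −0.47. Smooth muscle markers summed to 0.105%, 0.245% and 0.156% in libraries 4, 5 and 6 against 0.0424% to 0.0694% in WT-TRAMP, with all 9 above every control in each, and all 6 endothelial markers stood above every control in libraries 5 and 6. Of all genes by normalized counts, 25.3%, 36.3% and 30.1% lay above every control in libraries 4, 5 and 6. Neuroendocrine markers summed to 0.00388%, 0.0101% and 0.00644% in libraries 4, 5 and 6 against 0.000794% to 0.00456% in WT-TRAMP, with 4, 2 and 8 of 13 above every control and 0 below. The part of the seminal vesicle, smooth muscle, endothelial and neuroendocrine transcripts in these values was not tested.

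The member with the smallest p at 10 weeks in A537T-TRAMP was Mad2l1, with 326, 267 and 245 in WT-TRAMP libraries 1 to 3 and 276, 177 and 191 in A537T-TRAMP libraries 4 to 6 (−0.40 ± 0.22, SE, n = 3 against 3, limma adjusted p = 0.603). Cdk1 split in the same way, with 574, 510.1 and 399 in WT-TRAMP and 615, 185 and 308 in A537T-TRAMP (−0.58 ± 0.41, limma adjusted p = 0.640). Ccnb1 had 442, 313 and 232 in the controls against 433, 138 and 155 (−0.60 ± 0.45, limma adjusted p = 0.662). Bub1b had 550.3, 429 and 414 in the controls against 544, 221 and 296 (−0.49 ± 0.32, limma adjusted p = 0.627), and Birc5 255, 183 and 172 in the controls against 219.7, 102 and 126 (−0.50 ± 0.31, limma adjusted p = 0.619). In all 5 genes libraries 5 and 6 lay below every control, and library 4 lay among the controls, or above them in Cdk1. Top2a had 3008, 2432 and 1823 in the controls against 2804, 1252 and 1469.9 (−0.46 ± 0.32, limma adjusted p = 0.641), and Tpx2 555, 413 and 409 in the controls against 439, 347 and 281 (−0.38 ± 0.21, limma adjusted p = 0.606). Mki67, at 5202, 4061 and 3848 in the controls against 5336, 3664 and 3692 (−0.057 ± 0.20, limma adjusted p = 0.929), had library 4 above every control and libraries 5 and 6 below every control.

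The other members described by role overlapped the controls in A537T-TRAMP at 10 weeks through library 4 or 5, and none had all 3 mutant libraries below them. In Cenpf, Prc1 and Mybl2 library 6 also lay within the controls. Plk1 had 194, 95.6 and 88.9 in WT-TRAMP and 129, 104 and 82.6 in A537T-TRAMP (−0.19 ± 0.34, limma adjusted p = 0.860), and Aurkb 231, 211 and 162 in the controls against 199, 156 and 138 (−0.29 ± 0.21, limma adjusted p = 0.652). Cenpf had 1609.8, 1119 and 969.6 in the controls against 1447, 872 and 1027 (−0.14 ± 0.25, limma adjusted p = 0.853). The 5 kinetochore genes had the narrowest range of any role with 5 members, −0.20 to −0.13. Ndc80 had 204, 164 and 150.5 in the controls against 223, 111 and 134 (−0.20 ± 0.28, limma adjusted p = 0.815), and Kif11 656, 512 and 418 in the controls against 632, 361 and 388 (−0.22 ± 0.26, limma adjusted p = 0.775). Prc1 had 952, 675 and 511 in the controls against 749.6, 468 and 539 (−0.27 ± 0.27, limma adjusted p = 0.736). Racgap1 and Ube2c, from the midzone and the APC/C, were alike in that library 4 was inside the control range and 5 and 6 under it, with 646, 388 and 350.5 in the controls against 494, 323 and 269 for Racgap1 (−0.34 ± 0.30, limma adjusted p = 0.704) and 139, 87.5 and 78.8 in the controls against 129, 57.5 and 55.0 for Ube2c (−0.40 ± 0.39, limma adjusted p = 0.725). Cdc20 had 322, 236 and 194 in the controls against 389.8, 157 and 169 (−0.17 ± 0.37, limma adjusted p = 0.888), and, like Ndc80, had library 4 above every control and 5 and 6 below. The transcription factors did not follow that order of libraries. Foxm1 had 291, 252 and 231 in WT-TRAMP and 190.4, 271 and 204 in A537T-TRAMP (−0.23 ± 0.19, limma adjusted p = 0.682), and Mybl2 97.2, 69.1 and 45.5 in the controls against 52.1, 50.8 and 79.1 (−0.18 ± 0.34, limma adjusted p = 0.867).

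In A537T-TRAMP at 30 weeks the members had no shared direction, 14 with a mean above WT-TRAMP and 22 below. The median was −0.032, from −1.12 (Mybl2) to 0.46 (Ccnb2), against 0.00025 over all 16261 genes. By limma 0 members had an adjusted p under 0.05 (0% of all genes) and 0 an unadjusted p under 0.05 (7.21% of all genes). In edgeR 0 members passed at either level, where 0 of the 16261 genes were called and 1382 passed unadjusted. DESeq2 called 0 members (166 of the 16261 genes), with 1 at the unadjusted level (8.24% of all genes). No member had its 3 A537T-TRAMP libraries all below the controls (6.03% of all genes) or all above them. Library 13 lay below every control for 16 members (27.3% of all genes), library 14 above every control for 10 (29% of all genes) and library 15 above for 7 (26.5%). Leaving out the control library 11 brought the median to −0.34, the control library 10 to 0.26 and the control library 12 to −0.035. It was 0.30 without library 13, −0.21 without library 14 and −0.14 without library 15. Weighting by library quality called 2 members, Ccnb2 higher and Mybl2 lower, with a median of 0.12, in a fit that called 20.8% of all genes. Seminal vesicle transcripts made up 5.45%, 0.000313% and 2.65% of reads in libraries 13, 14 and 15. Smooth muscle markers summed to 0.298%, 0.0968% and 0.210% there, with 8 of 9 above every control in library 13 and 8 of 9 below in library 14. Of all genes by normalized counts, 29.5%, 29% and 26.5% lay above every control in libraries 13, 14 and 15, and 27.3%, 26.5% and 24% below. As in KO-TRAMP of that age, fibroblast and macrophage markers were mostly higher and adipose markers lower than in WT-TRAMP. In libraries 13, 14 and 15, 8, 4 and 7 of 8 fibroblast markers stood above every control and 0, 3 and 1 below. For the 9 macrophage markers these counts were 8, 5 and 7 above and 1, 0 and 0 below. All 7 adipose markers lay below every control in each library. The part of these transcripts in the mitotic values was not tested.

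Mybl2, the B-Myb subunit that turns MuvB from a repressor into an activator of mitotic genes, had 155, 69.1 and 154 in WT-TRAMP libraries 10, 11 and 12 and 47.5, 105 and 30.9 in A537T-TRAMP libraries 13, 14 and 15 (−1.12 ± 0.50, SE, n = 3 against 3, limma adjusted p = 0.703). Library 15 was low for Mybl2 alone, while its other 35 members lay within or above the controls. Of its exon words 19.8% recur in the gene copy Gm3320, and library 15 held 31 reads of it, so this value is uncertain. Ccnb2 had 177, 124 and 121 in WT-TRAMP and 123, 249 and 224 in A537T-TRAMP (0.46 ± 0.29, limma adjusted p = 0.768). Its library 13 lay among the controls and 14 and 15 above them. Foxm1 had 442, 196 and 223 in the controls against 129, 334 and 324 (−0.16 ± 0.44, limma adjusted p = 0.961). Racgap1 had 1028, 303 and 667 in the controls against 318, 579.5 and 520.3 (−0.37 ± 0.44, limma adjusted p = 0.879), and Plk1 115, 61.0 and 109 in the controls against 74.6, 166 and 132 (0.36 ± 0.36, limma adjusted p = 0.849). In Racgap1 all 3 mutant libraries lay within the control range, and in Plk1 libraries 14 and 15 lay above it.

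The remaining members described by role had fold changes within 0.3 of 0 in A537T-TRAMP at 30 weeks. Cdk1 had 494, 333 and 444 in WT-TRAMP and 401, 423 and 544 in A537T-TRAMP (0.11 ± 0.19, limma adjusted p = 0.922), and Ccnb1 489, 154 and 286 in the controls against 172, 369.7 and 335 (−0.0061 ± 0.45, limma adjusted p = 0.998). Aurkb had 207, 109 and 171 in the controls against 109.8, 248 and 168 (0.083 ± 0.34), and Birc5 243, 143 and 209 in the controls against 127, 229 and 206 (−0.094 ± 0.28). Of the checkpoint genes, Bub1b was at 472, 294 and 423 in the controls against 313, 533 and 475 (0.14 ± 0.25), with libraries 14 and 15 above every control, and Mad2l1 at 425, 255 and 308 in the controls against 242, 308 and 365 (−0.10 ± 0.23), with library 13 below every control. Cenpf had 2435, 741 and 1590.5 in the controls against 726, 1518 and 1412 (−0.29 ± 0.46), Ndc80 315, 126 and 207 in the controls against 161, 239.7 and 188 (−0.056 ± 0.33), and Kif11 776, 362 and 559 in the controls against 301, 723 and 596 (−0.091 ± 0.38). Tpx2 had 719, 299 and 393 in the controls against 252, 513 and 513 (−0.11 ± 0.39), and Prc1 919, 541 and 666 in the controls against 502, 950.4 and 939 (0.15 ± 0.29). Library 13 lay below every control in Cenpf, Kif11, Tpx2 and Prc1 and within the controls in Ndc80, and in Prc1 libraries 14 and 15 lay above every control. Cdc20 had 329, 167 and 224 in the controls against 138, 297 and 281 (−0.029 ± 0.35), Ube2c 174, 51.1 and 93.9 in the controls against 53.3, 154 and 136 (0.14 ± 0.54). Mki67 had 6406, 3017 and 4445 in the controls against 3078, 6383 and 5246 (0.088 ± 0.34) and Top2a 3190.0, 1299 and 2092 in the controls against 1480.5, 2534 and 2142 (−0.037 ± 0.34). The limma adjusted p of these members lay between 0.917 and 0.998.

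The difference of a line's effect between ages was tested as an interaction over its 12 libraries. In KO-TRAMP the fold change at 30 weeks was above that at 10 weeks for all 36 members, with a median difference of 1.13 log2 units against 0.0025 over all 16431 genes, from 0.17 (Espl1) to 1.74 (Ube2c). By limma 0 members had an adjusted p under 0.05 (0% of all genes), and 1, Cdc25c at 1.52 ± 0.67 (SE, limma adjusted p = 0.372), had an unadjusted p under 0.05 (6.31% of all genes were higher at that level). In edgeR 0 members were called (0 of the 16431 genes), with 10 at the unadjusted level (13.9% of all genes). DESeq2 called 0 members (389 of the 16431 genes), with 16 at the unadjusted level (15.9% of all genes). The differences of the cyclin B genes were 1.56 ± 0.96 for Ccnb1 and 1.38 ± 0.66 for Ccnb2, and that of Ube2c 1.74 ± 0.90. Cdc20 differed by 1.24 ± 0.63, Foxm1 by 0.96 ± 0.55, Mki67 by 0.63 ± 0.64 and Top2a by 1.09 ± 0.70. Without library 16, 26 members passed the threshold with a median of 1.82 (11.8% of all genes passed). Without library 17 the median was 0.61, and without libraries 12 and 18 it was 0.92, with 0 called in both. Weighting by library quality called 34 members (31.6% of all genes).

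In A537T-TRAMP the same difference was above 0 for 30 members and below for 6, with a median of 0.24 against 0.0053 over all 15941 genes. It ran from −0.94 ± 0.65 for Mybl2 to 0.81 ± 0.49 for Anln (limma adjusted p = 0.723). By limma 0 members had an adjusted p under 0.05 (0% of all genes) and 0 an unadjusted p under 0.05 (6.36% of all genes). In edgeR and DESeq2 0 members passed at either level. Of the 15941 genes, edgeR called 0 with 1213 at the unadjusted level, and DESeq2 called 49 with 1428. Leaving out libraries 11, 1, 14, 6 and 15 one at a time brought the median to −0.046, 0.037, 0.071, 0.087 and 0.14, and leaving out 3, 4, 10 and 13 to 0.39, 0.52, 0.57 and 0.57. Weighting by library quality called 1 member, Mybl2, lower (10.3% of all genes).

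**Figure D5:**
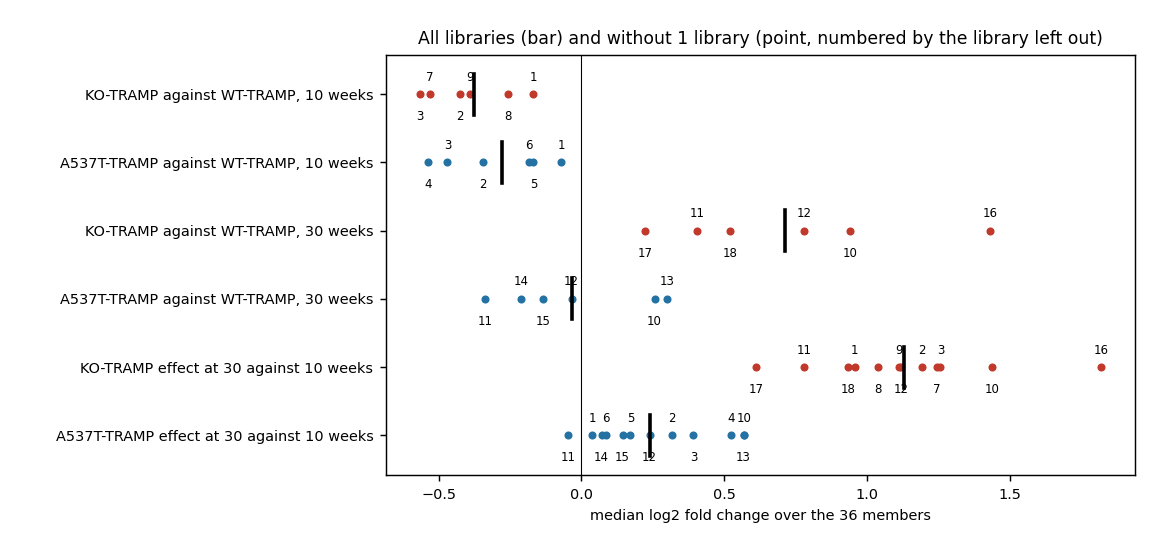
Median log2 fold change over the 36 members with all libraries (bar) and with 1 library left out (points, numbered by that library), for the 4 comparisons and the 2 differences between ages. In KO-TRAMP at 30 weeks the points run from 0.22 without library 17 to 1.43 without library 16, and those of A537T-TRAMP of that age lie on both sides of 0.

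For 4 other lists of cell cycle genes, chosen by function, none of their genes passed limma's threshold in any of the 4 comparisons. In KO-TRAMP at 30 weeks 69 of 80 other mitosis genes (kinetochore, spindle and cytokinesis genes outside the 36) had a mean above WT-TRAMP, with a median of 0.44, and the median was −0.27 at 10 weeks with 66 of 80 below. In A537T-TRAMP their medians were −0.27 at 10 weeks (71 below) and −0.047 at 30 weeks (46 below). The 36 DNA replication genes, which act in S phase, gave 0.33 as their median in KO-TRAMP at 30 weeks, with 29 above, and 0.033 at 10 weeks with 24 above, where the mitosis genes were mostly below 0. In A537T-TRAMP 34 of these 36 were below at 10 weeks, with a median of −0.39, and 19 above at 30 weeks, with a median of 0.027. Their summed share of reads was lowest in library 5, at 0.0953%. The 15 APC/C subunits had a median near 0 in both lines, of 0.0098 and −0.0077 for KO-TRAMP and A537T-TRAMP at 10 weeks, then 0.099 and 0.090. The 8 genes of the MuvB core and its pocket proteins gave −0.049 and −0.090 at the younger age, then 0.066 and 0.044. The limma counts at an unadjusted p under 0.05 in KO-TRAMP at 30 weeks were 0 of the other mitosis genes, 4 higher of the replication genes, 2 higher of the APC/C subunits and 1 higher of the MuvB list, beside 13.5% of all genes in either direction. In KO-TRAMP at 10 weeks they were 11 lower of the other mitosis genes, 1 lower of the APC/C subunits and 0 of the other lists, beside 2.93% of all genes lower. In A537T-TRAMP at 10 weeks they were 3, 1 and 1 lower of the other mitosis, replication and MuvB genes (7.89% of all genes in either direction), and at 30 weeks 1 higher and 2 lower of the other mitosis genes, 3 higher of the replication genes and 1 higher of the APC/C subunits (7.21%).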

How the data were processed

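RNA of mouse prostate was sequenced (Illumina TruSeq, NovaSeq). According to the submitters' processing notes and the study's methods, reads were trimmed with Trim Galore 0.4.1 and cutadapt 1.18, aligned with STAR 2.7.3a to GRCm38.p6 masked for nuclear copies of mitochondrial sequence, quantified by strand with Salmon and imported to DESeq2 1.26. The authors deposited 4 tables of normalized counts, a signal equal to the estimated count divided by 1 size factor per library within each table of 6 libraries. All values were whole multiples of 1 step (100%, tolerance 0.001 reads), so whole reads were recovered. The deposited tables of the authors' own fold changes and s-values were not used. Headers carry a library number, a letter code shared by all libraries and an index, but no group or replicate. Columns found in both tables of an age were taken as WT-TRAMP and the others as the mutant line of their table. No replicate numbers were assigned. The recovered reads of the WT-TRAMP libraries differed between their 2 tables (member ratios 0.865 to 1.12, with medians of 0.968 at 10 weeks and 0.982 at 30 weeks). They are therefore estimates particular to a table, and tests stayed within a table. Levels in RPM and shares of reads used the WT-TRAMP values of the KO-TRAMP tables.

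Gene IDs were matched to symbols with the supplied name table, and coordinates and exon lengths are of GENCODE on GRCm38. Each line was tested against WT-TRAMP with limma 3.58.1 in R 4.3.3 (lmFit, eBayes with trend) on log2(normalized count + 1), which understates changes of low genes, over genes with a mean of at least 10, two-sided, Benjamini-Hochberg adjusted, threshold 0.05. The difference between ages was an interaction with an intercept per table. Alternatives were pseudocounts of 0.5 and 5, no filter, a mean of at least 50, RPM scaling, edgeR 4.0.16 and DESeq2 1.42.0 on recovered reads, array weights and leaving out each library. The fits were tested on simulated counts with the means and library sizes of KO-TRAMP against WT-TRAMP at 30 weeks. Their spread and fold changes were fixed in advance and not taken from the data. That test therefore does not show which changes could be found at the spread of these libraries. The p-values measure the spread between these libraries only. Libraries at 30 weeks without 12 and 18 were an alternative chosen after seeing the data. The 19 members described by role were fixed by name, together with the member of smallest p each way per comparison, and others were named after their values were seen. The members, lists and rules were chosen with earlier results of these data known.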

Additional observations from a re-analysis of the deposited data

How the results depend on the processing

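No paired analysis was possible because the table columns carry no replicate number. Counts of members called were as given under most alternatives. DESeq2 called 1 member in KO-TRAMP at 10 weeks. Array weights, whose estimation stopped before its tolerance was reached in part of the fits, called 35 members in KO-TRAMP, then 2 in A537T-TRAMP, at 30 weeks, and 34 and 1 for the differences between ages. Leaving out 1 library gave 0 to 15 calls in KO-TRAMP at 30 weeks and 0 to 26 for its difference between ages, the highest both times without library 16. The median log2 fold change over members, leaving out 1 library, ran from −0.57 to −0.17 and from 0.22 to 1.43 in KO-TRAMP at 10 and 30 weeks, and from −0.54 to −0.072 and −0.34 to 0.30 in A537T-TRAMP. The cause was not tested. The share of promoters with a CHR was 36.7% in the upstream part alone, where 17.1% of all windows held one.

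Leaving out 1 library at a time put the log2 fold change on both sides of 0 for 5 and 7 of the 36 members in KO-TRAMP at 10 and 30 weeks, for 15 and 32 in A537T-TRAMP, and for 1 (Espl1, down to −0.26) and 19 in the differences between ages. Ranges follow for those with counts given in the 4 comparisons, and for 8 of the 19. In KO-TRAMP at 10 weeks Bub1b ran from −0.11 to 0.14, Mad2l1 from −0.056 to 0.19 and Espl1 from −0.093 to 0.53. In KO-TRAMP at 30 weeks Cenpf ran from −0.0093 to 1.38, Anln from −0.13 to 0.61, Espl1 from −0.048 to 0.79, Racgap1 from −0.083 to 1.48, Foxm1 from −0.085 to 0.63 and Mki67 from −0.0018 to 1.07. In A537T-TRAMP at 10 weeks Plk1 ran from −0.39 to 0.17, Cenpf from −0.35 to 0.066, Ndc80 from −0.49 to 0.015, Cdc20 from −0.59 to 0.064, Mybl2 from −0.46 to 0.082 and Mki67 from −0.24 to 0.075, and Mybl2 was 0.070 with array weights. In A537T-TRAMP at 30 weeks Cdk1 ran from −0.051 to 0.23, Ccnb1 from −0.43 to 0.40, Aurkb from −0.20 to 0.38, Birc5 from −0.31 to 0.16, Bub1b from −0.057 to 0.37, Mad2l1 from −0.27 to 0.10, Cenpf from −0.76 to 0.094, Ndc80 from −0.40 to 0.26, Kif11 from −0.38 to 0.28, Tpx2 from −0.39 to 0.24, Prc1 from −0.031 to 0.45, Racgap1 from −0.85 to 0.026, Cdc20 from −0.26 to 0.32, Ube2c from −0.30 to 0.61, Foxm1 from −0.39 to 0.29, Mki67 from −0.19 to 0.39 and Top2a from −0.37 to 0.28. With array weights there, Ccnb1 was 0.14, Aurkb −0.026, Mad2l1 0.15, Kif11 0.013, Tpx2 0.24, Cdc20 0.21 and Foxm1 0.33. For the difference between ages in A537T-TRAMP, Cenpf ran from −0.62 to 0.24, Ndc80 from −0.20 to 0.46, Kif11 from −0.16 to 0.50, Tpx2 from −0.013 to 0.62, Racgap1 from −0.51 to 0.37, Cdc20 from −0.093 to 0.56, Foxm1 from −0.16 to 0.52 and Mki67 from −0.13 to 0.45, while Racgap1 was 0.12 with array weights and Ndc80 −0.000707 in edgeR and −0.015 in DESeq2.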
